A study of Mus musculus with 4 samples.

Results

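The data were read for 7 hematopoietic niche cytokines, Cxcl12, Kitl, Il7, Csf1, Il34, Vcam1 and Flt3l, of the 26600 genes that all 4 count tables list. They were chosen by name as factors through which bone marrow stroma is known to act on blood cells, and all 7 were found in every table. Their levels were described by cell class, where a class is a set of cells that carry at least 3 of a fixed list of marker genes (a gate), and by library.

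Blood formation in adult bone marrow depends on signals from stromal cells that surround the sinusoids. The chemokine Cxcl12 holds hematopoietic stem cells and B cell precursors in the marrow through its receptor Cxcr4, and stem cell factor (Kitl) keeps stem and progenitor cells alive through Kit. Il7 drives B cell development, Csf1 and Il34 are both ligands of Csf1r on macrophages and osteoclasts, Vcam1 is the adhesion molecule bound by the integrin pair encoded by Itga4 and Itgb1, and Flt3l acts on early lymphoid and dendritic progenitors through Flt3.

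The samples were Td+ endosteal bone marrow cells of male Col2:Td mice, labelled as strain B6SJL/F1, in which a Cre driven by the collagen 2 promoter turns on the tdTomato reporter. Cells were released with proteases from metaphyseal bone fragments of long bones after the periosteum, the epiphyses and the central marrow had been removed, and sorted for Td fluorescence, so they are not an unselected sample of the marrow. Mice of an age were pooled into 1 library: 2 mice at 1 month, and 3 mice each at 1.5, 3 and 16 months. With 1 library per age, no difference between ages could be tested, and intervals on single values cover counting error only.

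The 4 tables held 4516 to 9229 barcodes each, and 24084 of 27907 barcodes had 200 to 6000 genes and at most 5% mitochondrial UMIs. The mitochondrial limit removed 1.16%, 5.07% and 7.22% of the barcodes of the younger libraries and 32.4% of those of the 16 month library. Kept cells had a median of 6264 UMIs in the 3 month library and of 9621 to 10280 in the others. Below, values given in series run from the youngest library to the oldest, and series of 3 values lack the 1.5 month library, where the class had under 20 cells, unless stated otherwise. A gate was assigned to 83.9% to 89.3% of the kept cells of a library, and 0.99% to 3.23% carried markers of more than one lineage and were set aside as mixed. The 3 younger tables list 27999 genes and share 30 to 61 barcodes pairwise, whereas the 16 month table lists 31054 genes and shares 1 or 2 barcodes with each of them. The age of 16 months therefore cannot be told apart from whatever differed in the making of that library and table.

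The class at the centre of the results is the Adipoq gate, named for the adipocyte hormone adiponectin and built on 9 markers (Adipoq, Lepr, Lpl, Kng1, Kng2, Esm1, Gdpd2, Agt and Grem1), none of them a niche cytokine. It held 239, 1241, 486 and 4064 cells, with a median of 7 or 8 markers on in a cell. Only 1.37% to 3.29% of these cells sat at the minimum of 3 markers. Cebpa, an adipogenic transcription factor that the gate did not use, was at 203, 336, 275 and 312 CPM (counts per 1000000 UMIs) in them, against 155, 120 and 116 CPM in macrophages at 1, 3 and 16 months and 74.0, 115, 87.3 and 114 CPM in the lineage-committed gate described below. The 8 neutrophil markers, none of them at 0, summed to 4879, 88.6, 865 and 68.2 CPM in these cells at 1, 1.5, 3 and 16 months, highest in the 1 month library. The part of such RNA in the results was not tested.

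Cxcl12 lies on mouse chromosome 6 (GRCm38, 117168535 to 117181367, plus strand), Kitl on chromosome 10 (100015630 to 100100416, plus strand) and Csf1 on chromosome 3 (107741048 to 107760469, minus strand). Il7 (7569994 to 7613760) and Vcam1 (116109949 to 116129688) are also on the minus strand of chromosome 3, Il34 is on the minus strand of chromosome 8 (110741829 to 110805924), and Flt3l is on the minus strand of chromosome 7 (45129788 to 45136432). In the annotation, Flt3l overlaps 1 gene on its own strand (Gm45713), so some of its reads could have been assigned elsewhere or dropped.

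RefSeq promoter sequence was at hand for 4 of the 7 genes: Cxcl12, Kitl, Csf1 and Flt3l. The 250 bases before the start site are shown for the 3 of them whose window ends at the start of the annotated gene, because Cxcl12 and Csf1 were high in the Adipoq gate and Flt3l was not. They are written 5′ to 3′ on the strand of the gene and lie, in GRCm38.p6, at chr6:117168285-117168534 (Cxcl12, plus strand), chr3:107760470-107760719 (Csf1, minus strand) and chr7:45136433-45136682 (Flt3l, minus strand). Capitals mark matches on either strand to any of 4 motifs. The GC box was searched as GGGCGG and the TATA box with the letters TATAAA. The core bound by EBF factors, which are regulators of marrow stroma, was written CCCNNGGG. The forkhead motif, bound by factors such as Foxc1, was searched as TGTTTAC. Overlapping matches run together.
Cxcl12: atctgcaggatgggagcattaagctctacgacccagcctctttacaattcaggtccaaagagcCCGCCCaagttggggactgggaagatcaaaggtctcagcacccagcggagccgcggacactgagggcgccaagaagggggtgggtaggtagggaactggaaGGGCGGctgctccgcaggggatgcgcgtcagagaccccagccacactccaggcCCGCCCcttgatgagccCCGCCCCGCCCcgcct
Csf1: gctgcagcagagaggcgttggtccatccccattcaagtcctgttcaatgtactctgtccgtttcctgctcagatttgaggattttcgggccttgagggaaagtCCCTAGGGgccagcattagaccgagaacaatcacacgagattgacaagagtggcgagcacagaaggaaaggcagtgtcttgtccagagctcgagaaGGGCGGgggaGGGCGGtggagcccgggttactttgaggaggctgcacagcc
Flt3l: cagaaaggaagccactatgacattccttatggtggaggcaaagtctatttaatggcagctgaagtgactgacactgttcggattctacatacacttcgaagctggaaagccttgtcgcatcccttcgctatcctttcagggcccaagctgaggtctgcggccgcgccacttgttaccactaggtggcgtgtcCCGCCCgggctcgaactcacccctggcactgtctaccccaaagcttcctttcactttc

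Cxcl12 has 5 GC box matches, Csf1 has 2 and Flt3l has 1, and 32.7% of the 32851 RefSeq promoters of this length hold at least 1. Csf1 has an EBF core match 147 bases before the start, as 11.8% of promoters do, and neither Cxcl12 nor Flt3l has one. None of the 3 windows holds the TATA letters (12.4% of promoters) or the forkhead letters (3.17%). These matches describe the letters of the window only.

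Cxcl12 was carried above all by the Adipoq-gated cells, in every library. Its level there was 16573 (95% Poisson interval 16389 to 16759), 26872, 23993 and 25559 CPM, or 23249 ± 4604 CPM over the libraries (SD, n = 4). Every other class lay lower. The next was the lineage-committed gate (Limch1, Kcnk2, Hey1, Cdh15, Cadm1) at 3689, 5713, 4753 and 4665 CPM, 4.49 to 5.48 times lower than the Adipoq gate. In that gate 65.0% to 77.6% of the cells sat at the minimum of 3 markers, so it is a range of cells rather than a sharp type.

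The level in neutrophils, which are not a source of Cxcl12, was taken as a reference for free RNA, but it was not the lowest level. At 3 months granulocyte progenitors (58.1 CPM), macrophages (170 CPM) and monocytes (184 CPM) lay below it. At 16 months monocytes (263 CPM) and erythroid cells (301 CPM) did, while other classes lay above it. The part of free RNA in each class was not tested. The neutrophil gate carried 73.9, 476 (from 20 cells only), 285 and 599 CPM. Osteoblast-gated cells had 98.3, 527, 169 and 459 CPM, and chondrocyte-gated cells 108, 484, 110 and 703 CPM. Early progenitor cells, marked by Ly6a, Cd34 and Pi16, had 201, 817, 984 and 2306 CPM, above the neutrophil level of their own library each time. Over the 4 libraries, the ranges of the Adipoq and lineage-committed gates did not overlap, nor did those of the lineage-committed gate and the early progenitors, whereas further down the order neighbouring classes overlapped.

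Kitl was also highest in the Adipoq gate in every library. Adipoq-gated cells had 518, 696, 700 and 1605 CPM, against 112, 148, 183 and 424 CPM in lineage-committed cells, without overlap between the ranges. The vascular classes also carried it, and mural cells were the next class after the Adipoq gate at 1.5 and 3 months. Mural cells, the contractile cells around vessels, had 84.1 CPM at 1 month (25 cells), 151 CPM at 1.5 months (50 cells) and 195 CPM at 3 months (22 cells), and endothelial cells 104, 81.0 and 151 CPM at 1, 3 and 16 months. All of these are above the 3.24, 5.18, 7.55 and 34.5 CPM of the neutrophil gate.

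**Figure D1:**
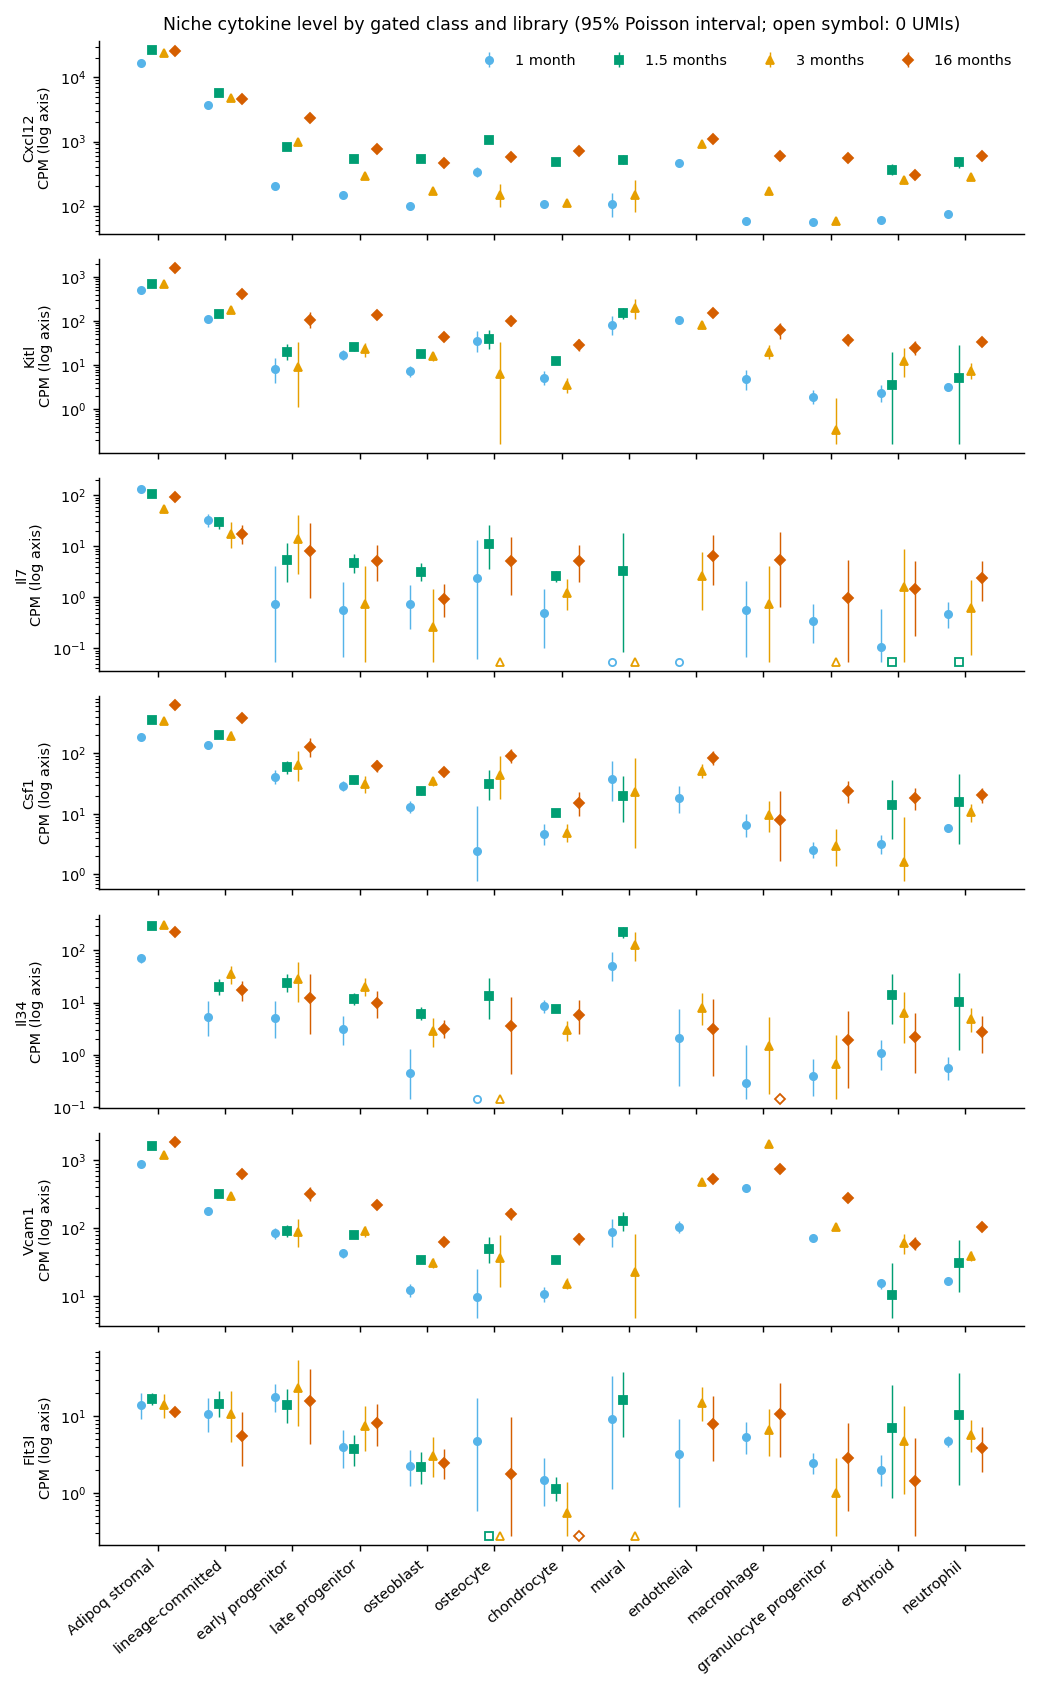
Level of each niche cytokine (CPM, logarithmic axis, with 95% Poisson intervals) in 13 gated classes with at least 20 cells, one symbol per library, open symbols for classes with 0 UMIs. For Cxcl12, Kitl and Il7 the Adipoq gate stands above every other class in each library, while Vcam1 is also high in macrophages, Il34 in mural cells, and Flt3l is low throughout.

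Il7 was likewise highest in the Adipoq gate in every library. Its level in the Adipoq gate was 132 (interval 116 to 150), 104, 54.7 (45.3 to 65.5) and 91.2 CPM. Lineage-committed cells held 32.3, 29.4, 17.5 and 17.5 CPM, again without overlap. In neutrophils Il7 was at 0.463, 0, 0.604 and 2.35 CPM, from 13, 0, 2 and 6 UMIs.

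Csf1 was spread more widely over the mesenchymal classes. Adipoq-gated cells had 189, 353, 336 and 621 CPM, and lineage-committed cells 138, 199, 196 and 380 CPM. In each library the Adipoq gate was higher, by 1.37 to 1.78 times, but the ranges over the 4 libraries overlapped. Among the classes with at least 20 cells in every library, early progenitors (40.6, 58.4, 65.0 and 129 CPM) came next by median. Osteocytes (median 37.2 CPM) followed, with a range that overlapped theirs. Late progenitors, cells marked by Postn, Aspn and Tnn, had 28.9, 35.9, 31.2 and 61.9 CPM (median 33.6 CPM). At 1 month, the only library with at least 20 basophil-gated cells, the 27 basophils carried 93.8 CPM of Csf1 (62.8 to 135).

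Il34, the other ligand of Csf1r, had a narrower pattern. Adipoq-gated cells had 70.3, 298, 307 and 225 CPM. Mural cells were next in each library where at least 20 were found, with 51.4 CPM at 1 month (25.6 to 91.9, from 11 UMIs), 223 CPM at 1.5 months (174 to 283, from 68 UMIs) and 126 CPM at 3 months (63.0 to 226, from 11 UMIs). At 1 month the intervals of the Adipoq and mural gates overlapped, and at 1.5 and 3 months they did not. Lineage-committed cells had 5.38, 20.2, 34.9 and 17.5 CPM of Il34.

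Vcam1 was shared with macrophages. It stood at 894, 1635, 1216 and 1869 CPM in Adipoq-gated cells, and at 389 CPM in the macrophages of 1 month (415 cells), 1739 CPM in those of 3 months (297 cells) and 747 CPM in those of 16 months (35 cells). At 3 months macrophages exceeded the Adipoq gate, which stood at 0.699 times their level. Endothelial cells, which use Vcam1 to hold leukocytes, had 104, 479 and 534 CPM at 1, 3 and 16 months, and granulocyte progenitors 73.2, 106 and 277 CPM. The neutrophil level was 16.5, 31.1, 39.3 and 106 CPM.

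Flt3l did not follow the stromal pattern. Its level in Adipoq-gated cells was 13.95, 16.99, 13.91 and 11.56 CPM, beside 17.7, 14.2, 23.2 and 16.1 CPM in early progenitors, whose values rest on 24, 16, 5 and 4 UMIs. Neutrophils had 4.73, 10.4, 5.74 and 3.92 CPM. The ranges of neighbouring classes overlapped from the top of the order.

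The difference between the Adipoq gate and the early progenitor, late progenitor, osteoblast and endothelial gates was tested on UMIs summed per class and library, with the library as a block. There were 4 libraries, or 3 for endothelial cells, which numbered 16 at 1.5 months. Of the cytokines, 6 of 7 were higher in Adipoq-gated cells than in early progenitors, and none was lower. Among all 11014 genes tested, 14.5% were higher and 12% lower in that comparison. The median log2 fold change of the 7 genes was 3.72, beside 0.07 over all genes.

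Cxcl12 exceeded early progenitors by a log2 fold change of 4.85 (SE 0.384, adjusted p = 6.02e-08), Kitl by 5.04 (SE 0.389, adjusted p = 4.41e-08) and Il7 by 4.66 (SE 0.603, adjusted p = 1.38e-05). Il34 exceeded them by 3.72 (SE 0.253, adjusted p = 1.26e-08), Vcam1 by 3.41 (SE 0.297, adjusted p = 1.71e-07) and Csf1 by 2.35 (SE 0.176, adjusted p = 3.5e-08). For Flt3l the estimate was -0.35 (SE 0.304, adjusted p = 0.446), which did not pass the test.

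All 7 were higher in Adipoq-gated cells than in late progenitors, where 18.8% of genes were higher and 18.3% lower, and than in osteoblasts, where 24.9% were higher and 23.9% lower. The median of the 7 was 4.34 and 4.87 on the log2 scale, beside 0.0054 and 0.0274 over all genes. Flt3l had the smallest of these differences, 1.35 over late progenitors (SE 0.284, adjusted p = 0.00108) and 1.89 over osteoblasts (SE 0.269, adjusted p = 1.44e-05). The difference in Cxcl12 was 5.95 over late progenitors (SE 0.401, adjusted p = 6.77e-09) and 5.90 over osteoblasts (SE 0.401, adjusted p = 2.77e-09).

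Over endothelial cells 6 of 7 were higher, in a comparison that called 19.1% of genes higher and 21.5% lower, with a median of 3.01 beside -0.0187 over all genes. Vcam1 differed by 2.17 (SE 0.312, adjusted p = 2.15e-05) and Kitl by 2.90 (SE 0.363, adjusted p = 4.62e-06), the smallest differences of the 6. Flt3l, at 0.78 (SE 0.361, adjusted p = 0.0957), did not pass. Without the 3 month library it was 1.57 and passed, as it did with 1 more marker required (1.08) or with up to 10% mitochondrial UMIs (0.84). All 4 comparisons share the Adipoq sums, and gates and cytokines were read in the same cells.

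**Figure D2:**
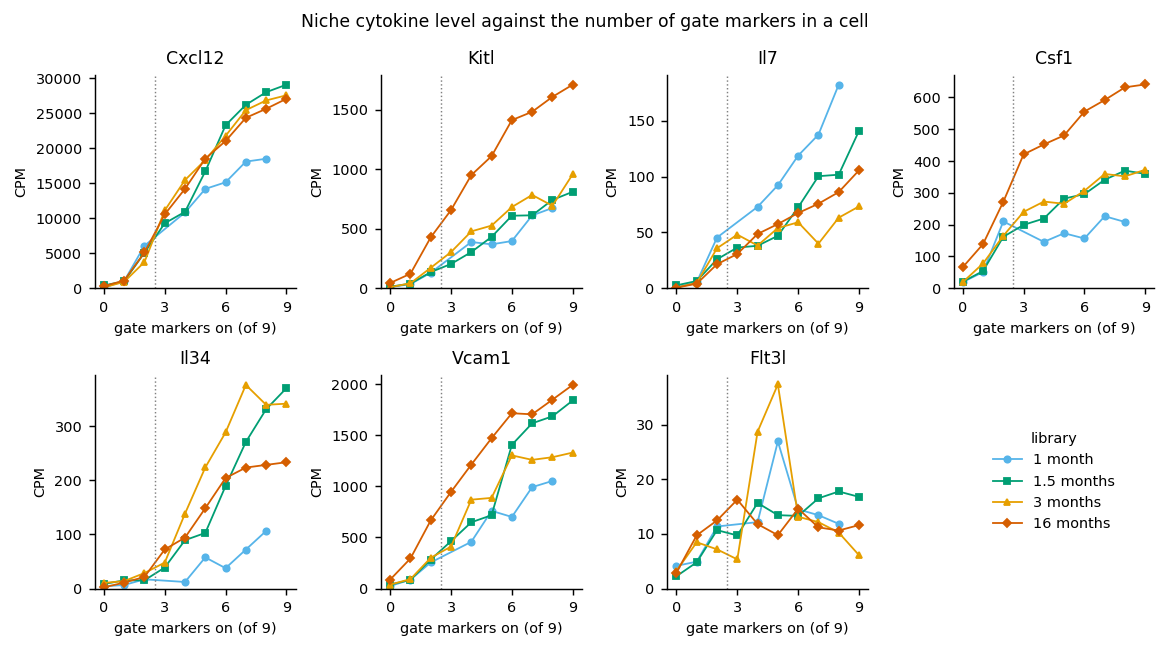
Level of each cytokine (CPM) against the number of Adipoq-gate markers on in a cell (0 to 9), for cells with a mesenchymal marker and no gate outside the mesenchymal lineage, one line per library and groups of at least 20 cells. The dotted line is the minimum of the gate. In each library Cxcl12, Kitl and Vcam1 are higher in cells with 8 markers on than in cells with 2, and Flt3l stays low.

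Within the stroma, Cxcl12, Kitl, Il7, Il34 and Vcam1 were higher in cells with 8 gate markers on than in cells with 2, in each library. Levels are sums over the cells of a marker number, so a higher level per cell and more cells with the transcript cannot be told apart in them. Mesenchymal cells with none of the 9 Adipoq-gate markers on had 96.9, 402, 120 and 292 CPM of Cxcl12 in the 4 libraries. With 2 markers on, just short of the gate, they had 6078, 5084, 3748 and 5116 CPM, and with 8 on 18514, 28031, 26853 and 25657 CPM. Kitl went from 131, 136, 172 and 428 CPM with 2 markers on to 675, 743, 693 and 1609 CPM with 8. Csf1 climbed less steeply, from 210, 162, 165 and 272 CPM at 2 markers to 208, 370, 352 and 632 CPM at 8, with no rise at 1 month. Flt3l stood at 11.4, 10.7, 7.17 and 12.46 CPM with 2 markers on and at 11.8, 17.8, 10.2 and 10.6 CPM with 8.

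Among single Adipoq-gated cells, Cxcl12 varied little. The 10th and 90th percentiles of its UMIs per 10000 differed by 2.34, 1.85, 2.13 and 1.88 times, around medians of 172, 272, 245 and 261. When each cell was thinned to 3000 UMIs, all 239, 1241, 425 and 3809 remaining Adipoq-gated cells had a Cxcl12 UMI. A Cxcl12 UMI was also seen in 13.6% (12.1 to 15.1), 70.0% (45.7 to 88.1, 20 cells), 21.0% (17.1 to 25.3) and 65.7% (59.4 to 71.7) of neutrophil-gated cells. The intervals of the 2 classes lay apart in each library, and the neutrophil share differed widely between libraries.

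In neutrophils the other cytokines were seen in few cells. At 3000 UMIs Kitl was seen in 76.2% (95% Clopper-Pearson interval 70.2 to 81.4), 84.4%, 82.4% and 97.1% (96.5 to 97.6) of Adipoq-gated cells, beside 0.691%, 0%, 1.98% and 8.26% of neutrophils. Vcam1 was seen in 87.9%, 95.9%, 92.2% and 97.7%, beside 3.21% to 11.2% of neutrophils, Csf1 in 39.7%, 61.2%, 59.3% and 78.3%, and Il34 in 18.8%, 52.1%, 53.9% and 47.0%. Il7 was seen in 29.7%, 25.5%, 15.8% and 23.5%, beside at most 0.413% of neutrophils, and 0 of 20 at 1.5 months. Flt3l was seen in 4.6%, 5.8%, 4.47% and 2.97% of Adipoq-gated cells, beside 1.38%, 5%, 1.23% and 0.826% of neutrophils, and its intervals overlapped at 1.5, 3 and 16 months. Unthinned, Kitl had a UMI in 91.2%, 95.2%, 89.3% and 98.2% of Adipoq-gated cells, at a different depth in each library.

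**Figure D3:**
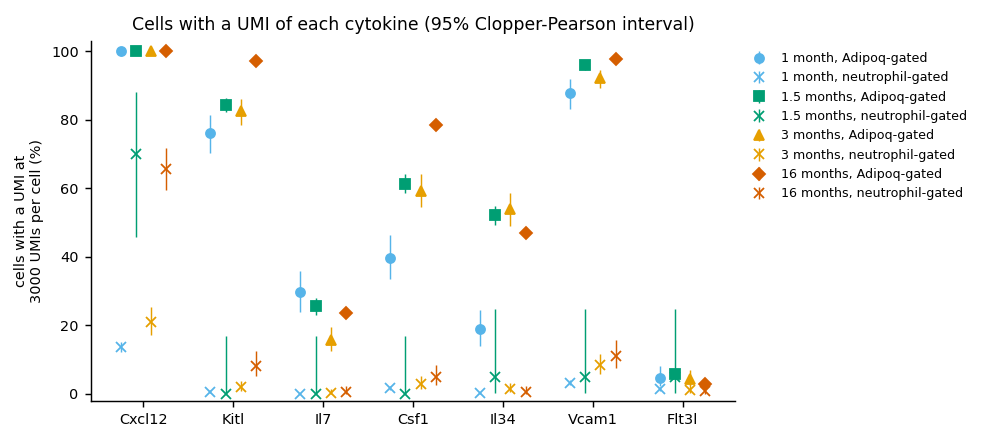
Percent of cells with a UMI of each cytokine after every cell was thinned to 3000 UMIs, in Adipoq-gated cells (filled symbols) and in neutrophil-gated cells (crosses), with 95% Clopper-Pearson intervals. Kitl, Vcam1, Csf1, Il34 and Il7 lie above the neutrophil share in each library (20 neutrophils at 1.5 months leave wide intervals), and Cxcl12 has a UMI in every Adipoq-gated cell.

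Several cytokines were seen in most single Adipoq-gated cells, at about the share that their separate detection gives. At 16 months Kitl and Vcam1 were seen together in 94.9% of cells, and 94.9% would hold both if the detection of one were unrelated to that of the other. For Csf1 and Il34 these shares were 8.37%, 32.6%, 32.2% and 37.1%, beside 7.48%, 31.9%, 31.9% and 36.8% if unrelated. At 3000 UMIs the median was 3 of the 7 per cell at 1 month and 4 in each other library. Cells with only 1 of them made up 2.09%, 0.645%, 0.471% and 0.0263%, and no cell had none, since Cxcl12 was in every cell. All 7 were seen together in 0, 3, 2 and 14 cells.

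The Adipoq gate held most of a library's Cxcl12 while holding a smaller share of its cells. At 1 month it made up 2.88% of kept cells and had 61.6% of all Cxcl12 UMIs, 49.8% of Kitl and 63.7% of Il7. At 1.5 months these cells were 22.8% and had 82.2% of Cxcl12, 79.4% of Kitl and 76.9% of Il7, and at 3 months 11.6% with 76.0%, 66.8% and 63.8%. At 16 months they were 66.2% of cells and had 94.9%, 93.9% and 94.9%. For Vcam1 at 3 months the gate's share, 34.1%, was near the 31.1% of macrophages. These shares follow the mix of cells that the sort delivered, so they do not compare ages.

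**Figure D4:**
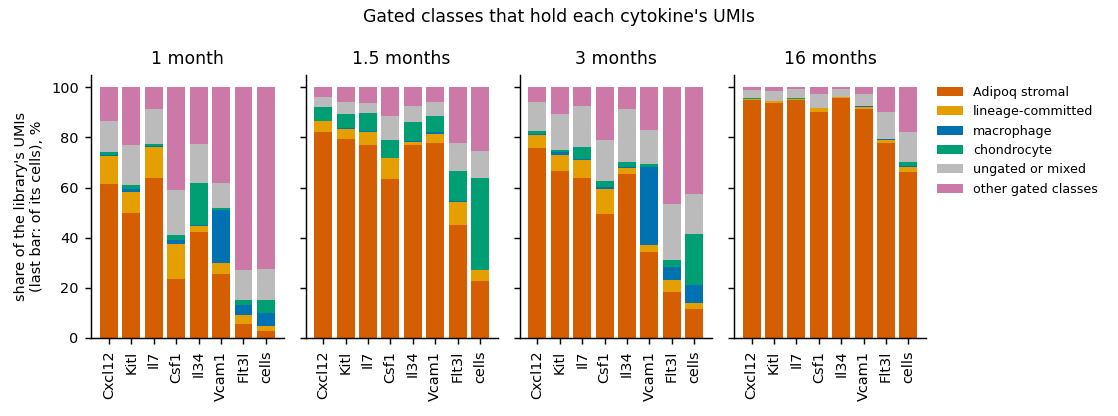
Percent of each library's UMIs of a cytokine that lies in each gated class, with the percent of cells as the last bar of each panel. At 1 month the Adipoq gate holds 2.88% of cells and 61.6% of Cxcl12 UMIs, and macrophages hold 21.1% of Vcam1 UMIs.

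Between ages, Kitl stood out in the Adipoq-gated cells. Its level at 16 months was 3.10 times that at 1 month (95% interval 2.91 to 3.31), 2.30 times that at 1.5 months (2.24 to 2.37) and 2.29 times that at 3 months (2.18 to 2.42). It was the only one of the 7 that reached at least 2 times every younger library, 1 of 7, where 5.93% of the 8732 genes with at least 10 CPM did so. None fell to 1/2 of every younger library, where 2.77% of genes did. The median log2 ratio of 16 months to the mean of the younger libraries was 0.185 for the 7 genes and 0.0315 for all 8732.

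Csf1 was 3.29, 1.76 and 1.85 times higher at 16 months than at 1, 1.5 and 3 months. Cxcl12 changed little after 1 month, with ratios of 1.54, 0.951 and 1.07. Vcam1 had ratios of 2.09, 1.14 and 1.54. Il34 set the 1 month library apart, with 3.21 over 1 month but 0.756 and 0.735 over 1.5 and 3 months. Il7 at 16 months was 0.691 times the 1 month level, 0.877 times that of 1.5 months and 1.67 times that of 3 months. Flt3l had ratios of 0.829 (0.558 to 1.28), 0.68 (0.559 to 0.833) and 0.831 (0.574 to 1.25), and the interval of the ratio to 1.5 months alone lay below 1.

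**Figure D5:**
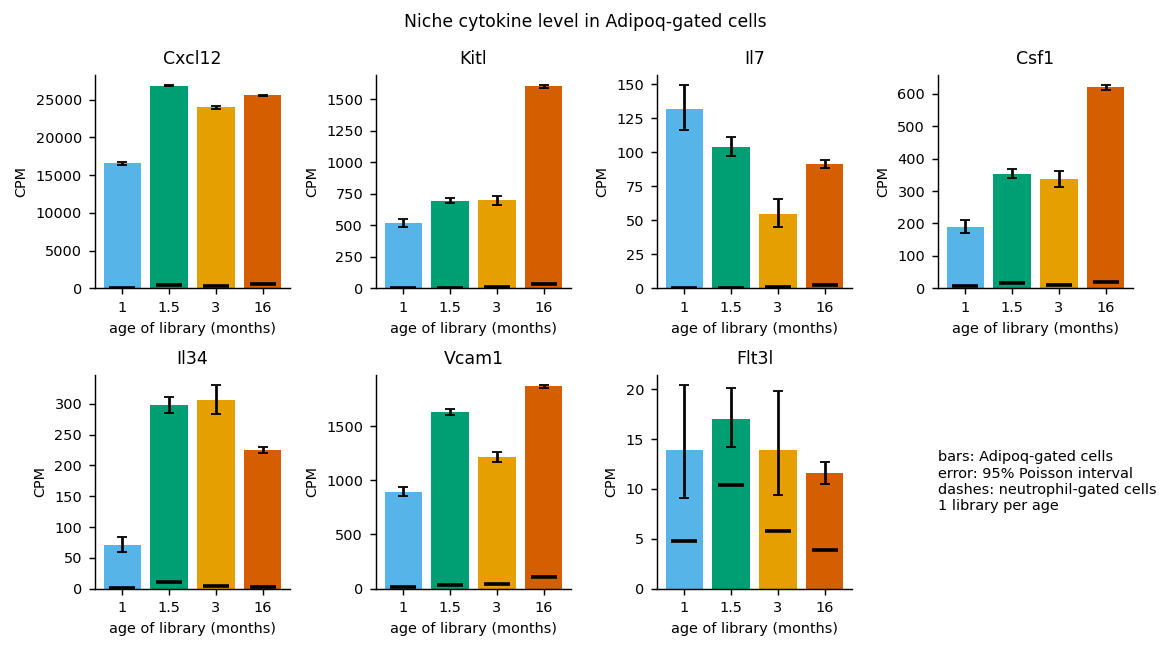
Level of each cytokine (CPM, bars from 0) in the Adipoq-gated cells of the 4 libraries, with 95% Poisson intervals and, as dashes, the level in neutrophil-gated cells of the same library. Kitl is at 1605 CPM in the 16 month library and at 518 to 700 CPM in the younger libraries. There is 1 library per age, so the bars carry no replicate error.

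The higher Kitl of the 16 month library was also seen outside the Adipoq gate. Kitl was highest at 16 months in all 8 other classes with at least 20 cells in every library, the neutrophils among them. In 7 of the 8 it was at least 2 times the highest younger value. Late progenitors had 17.1, 25.6 and 23.0 CPM at 1, 1.5 and 3 months and 139 CPM at 16 months, lineage-committed cells 112, 148, 183 and 424 CPM, and neutrophils 3.24, 5.18, 7.55 and 34.5 CPM. Csf1 was also highest at 16 months in all 8, with at least 2 times the younger values in 1. Vcam1 was highest at 16 months in 7 of the 8 and at least 2 times the younger values in 5. The neutrophil level of Kitl, used as the reference for free RNA, moved with the Kitl difference, and its part in it was not tested. At 16 months chondrocytes (28.8 CPM) and erythroid cells (25.2 CPM) lay below the 34.5 CPM of neutrophils, and osteoblasts (43.5 CPM) were near it. In these classes the higher Kitl cannot be told apart from the neutrophil level.

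The receptors of the cytokines were read in the same cells. Of the 9 receptor genes listed, only Itgb1, the broadly used integrin beta 1 chain, reached 10 CPM in an Adipoq-gated sum, at 348, 326, 334 and 562 CPM. Csf1r was highest in macrophages, at 564, 488 and 710 CPM at 1, 3 and 16 months, followed by the 56 osteoclasts of 1 month at 305 CPM. Il7r was at 151 and 287 CPM in B lineage cells at 1 and 16 months and at 169 CPM in the 21 plasmacytoid dendritic cells of 1 month. Cxcr4 had 81.2, 148 and 350 CPM in macrophages at 1, 3 and 16 months.

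Kit, the receptor of Kitl, was sparse in these sorted cells. It reached 10.3, 14.5 and 51.1 CPM in granulocyte progenitors and 12.7, 23.1 and 28.7 CPM in endothelial cells at 1, 3 and 16 months. Flt3 was at 54.0 CPM in the plasmacytoid dendritic cells, from 8 UMIs. Itga4, the alpha 4 integrin chain, was at 61.8, 74.0, 48.9 and 99.9 CPM in erythroid cells.

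Ackr3, which binds Cxcl12 and clears it from the surroundings, was high in osteocytes and early progenitors and low in the Adipoq gate. Osteocytes had 213, 245, 210 and 319 CPM and early progenitors 104, 156, 153 and 149 CPM, while Adipoq-gated cells had 2.68, 4.84, 0 and 1.07 CPM. It was lower in the Adipoq gate than in early progenitors by a log2 fold change of -6.35 (SE 0.48, adjusted p = 3.76e-08), and was also lower than in the other 3 classes tested. Of the 6 receptors tested, 1, 1, 1 and 0 were higher and 1, 2, 2 and 4 lower in the Adipoq gate than in early progenitors, late progenitors, osteoblasts and endothelial cells. Among all genes, 14.5%, 18.8%, 24.9% and 19.1% were higher and 12%, 18.3%, 23.9% and 21.5% lower. A count of 1 of 6 was therefore near these shares.

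Other factors that marrow stroma is known to provide were counted as a list of 25 genes. Of the 22 tested, 8 were higher and 3 lower in Adipoq-gated cells than in early progenitors, 13 and 3 against late progenitors, 17 and 2 against osteoblasts, and 13 and 3 against endothelial cells. Among all genes, 14.5%, 18.8%, 24.9% and 19.1% were higher and 12%, 18.3%, 23.9% and 21.5% lower. The 3 of 22 that were lower than in early progenitors were thus near the share over all genes. The medians of the list were 0.913, 2.03, 2.9 and 1.77 on the log2 scale, beside 0.07, 0.0054, 0.0274 and -0.0187 over all genes. Gas6, a ligand of the Tyro3, Axl and Mertk receptors, was higher in all 4 comparisons, at 1944, 3480, 2948 and 3400 CPM in the Adipoq gate against 211, 550, 441 and 486 CPM in early progenitors. Tnfsf11 (RANKL), which drives osteoclast formation, was also higher in all 4, at 498, 439, 197 and 102 CPM.

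Angpt1, a ligand of the endothelial receptor Tie2, was higher in the Adipoq gate in all 4 comparisons, at 102, 85.5, 69.6 and 159 CPM. Igf1 went in different directions by class. It was lower in Adipoq-gated cells (800, 427, 264 and 148 CPM) than in early progenitors (1163, 1277, 803 and 337 CPM), with a log2 fold change of -1.23 (SE 0.278, adjusted p = 0.00278). Igf1 was higher in them than in osteoblasts, by 4.41 (SE 0.32, adjusted p = 5.93e-09), and than in endothelial cells, by 3.23 (SE 0.368, adjusted p = 1.5e-06), and the difference of -0.38 from late progenitors did not pass (adjusted p = 0.311). Ptn, a heparin-binding growth factor, was lower than in early progenitors, by -3.40 (SE 0.593, adjusted p = 0.000293), and than in late progenitors, by -6.12 (SE 0.654, adjusted p = 1.04e-06), and did not pass the test against osteoblasts or endothelial cells. Ptn was at 284, 58.2, 14.4 and 6.75 CPM in the Adipoq gate. It was the 1 gene of the 19 measured at 10 CPM or more to fall below 1/2 of every younger library at 16 months. Of all 8732 genes at that minimum, 2.77% did so.

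The genes whose pattern over 57 sums of class and library was most like that of a cytokine were found by correlation. Only genes listed in every table with at least 50 CPM in 1 sum were searched. The marker genes of the gates were left out, so the genes named here are not the nearest of all genes. For Cxcl12 they were Dpep1 (Pearson's r = 0.915), Il7 (0.908) and Fbln5 (0.891), and for Kitl Ebf3 (0.915), Id4 (0.888) and Spry4 (0.868), among 7489 genes. The nearest to Il7 were Cxcl12 (0.908), Dpep1 (0.891) and Marc1 (0.884), and to Csf1 Mpdz (0.851) and Cyp1b1 (0.835). Il34 was nearest to Serping1 (0.861), Vcam1 to Gm4951 (0.828) and Flt3l to Gbp2 (0.662). Sums of 1 library share depth and free RNA, so these values describe the tables.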

How the data were processed

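The authors counted UMIs per gene and barcode with Cell Ranger 3.0.2 on mm10 with the reporter added, and deposited raw UMI counts, pooled over mice, without normalization. The annotation is not given in the sources used here. The study's filter (200 to 6000 genes, at most 5% mitochondrial UMIs) was applied here. A marker was on at 10% or more of the 95th percentile of its nonzero values per 10000 UMIs in the highest library, and at least 1. That percentile was taken over all barcodes, before the filter. Cells went to the class with the largest share of markers on, at least 3, among 20 classes. Ties stayed ungated. Cells with 3 or more markers of a second lineage were set aside in place of a doublet caller. Markers missing from a table (Cnmd, Snorc, Trbc2) were dropped. The genes, markers and lists were chosen with earlier results of these data known, and the scoring rule after marker values were seen.

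CPM are summed UMIs of a class over its total. They are not scaled by gene length, so levels were compared within a gene only. Poisson, binomial and Clopper-Pearson intervals cover counting error. Class differences used edgeR 4.0.16 (quasi-likelihood test, TMM, filterByExpr, library block, Benjamini-Hochberg adjustment at 0.05) in 1 fit of the 5 compared classes, with at least 20 cells in a library, with the SE taken as the fold change over the root of F. The library block takes up differences between libraries, and so between ages, that all classes share. The p-values rest on how far the differences between classes still varied from library to library. The script was tested on simulated data. Against early progenitors, late progenitors, osteoblasts and endothelial cells it recovered 49%, 67%, 70% and 42% of simulated 2-fold changes. Of simulated 4-fold changes it recovered 93%, 96%, 98% and 90%. A gene that did not pass can therefore still differ by 2-fold. Ages were compared as ratios, with no test. Named genes are the cytokines, their receptors, further stromal factors, transcription factors and adhesion genes of a written list, inflammatory and interferon genes for sub-gates, and the 3 genes nearest to each cytokine by Pearson correlation of log2(CPM + 1). Positions come from GENCODE M21. A result among the genes with the most similar patterns is not reported here.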

Additional observations from a re-analysis of the deposited data

Results flagged for a closer look

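Barcodes outside the filter entered no main comparison. Some of them entered the alternative with up to 10% mitochondrial UMIs. The level at which a marker was on was set with them included. In the 16 month library the barcodes outside the filter numbered 3086, with a median of 6.84% mitochondrial UMIs, and 1207 of them met the Adipoq gate. Over all 3086 barcodes, whether or not they met the gate, the Cxcl12 level was 9333 CPM (95% Poisson interval 9295 to 9370). This was above the 599 CPM of the neutrophil-gated cells of that library, which is what drew attention to the barcodes. Kitl was at 617 CPM and Vcam1 at 920 CPM in the same barcodes. In the younger libraries, 109 to 336 barcodes lay outside the filter, and 2, 27 and 9 of them met the Adipoq gate.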

How the results depend on the processing

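The number of cytokines higher in Adipoq-gated cells was 6 of 7 against early progenitors and 7 of 7 against late progenitors and osteoblasts under each alternative: the DESeq2 Wald test (DESeq2 1.42.0), no filter on low counts, a pairwise fit, no library block, each library left out in turn, 1 marker more or fewer for the gate, mixed cells kept, and up to 10% mitochondrial UMIs. Gates with 1 marker fewer and the 10% limit in this test were chosen after seeing the data. Against endothelial cells it was 6 or 7, the seventh being Flt3l. Of 336 single fold changes, 333 kept their side of the threshold and none reversed. The count of 1 cytokine, Kitl, at least 2 times higher at 16 months than in each younger library stayed at 1 under 6 alternatives, and 114 of 126 ratios stayed within their interval. With TMM scaling, Kitl was 3.35 times the 1 month level. Levels in the Adipoq gate stayed within their Poisson interval in 170 of 196 cases. Shares of cells with a UMI moved with the thinning depth in 67 of 84 cases. The class comparisons were paired within libraries by the library block. Between ages, no further pairing was possible: each age has 1 library. Flt3l levels in the Adipoq gate rest on 26, 130, 30 and 464 UMIs.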

Other observations

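Of 7 transcription factors known from marrow stroma, 3 were higher and 3 lower in Adipoq-gated cells than in early progenitors, and 6, 7 and 6 were higher and 0, 0 and 1 lower than in late progenitors, osteoblasts and endothelial cells. In these 4 comparisons 14.5%, 18.8%, 24.9% and 19.1% of all genes were higher and 12%, 18.3%, 23.9% and 21.5% lower. Ebf3 was at 181, 253, 261 and 660 CPM and Foxc1 at 134, 192, 268 and 434 CPM, against 13.3, 7.96, 23.2 and 64.3 CPM and 41.3, 51.3, 60.3 and 197 CPM in early progenitors. Ebf3, Runx1 and Nr2f2, 3 of the 7, were at least 2 times higher at 16 months than in every younger library, as were 5.93% of the 8732 genes with at least 10 CPM. Ebf1 was not, at 764, 804, 736 and 777 CPM. Of 8 adhesion genes, 3, 2, 2 and 4 were higher and 1, 2, 4 and 3 lower in Adipoq-gated cells in the same comparisons, so several of these counts were near the shares over all genes. Icam1 (48.8, 72.6, 99.7 and 345 CPM) and Cdh11 (398, 430, 425 and 991 CPM), 2 of the 5 adhesion genes with at least 10 CPM, were at least 2 times higher at 16 months than in every younger library. The same held for the gate marker Lepr, at 161, 311, 220 and 911 CPM.

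Within the Adipoq gate, cells with at least 2 of Ccl7, Ptx3, Ccl2 and Il6 on made up 13.4%, 33.2%, 35.4% and 29.5% of cells. At 16 months their Csf1 was at 696 CPM against 584 CPM in the other Adipoq-gated cells, their Il7 at 73.2 against 100 CPM, and their Kitl at 1618 against 1598 CPM. In the younger libraries Csf1 was at 268, 361 and 371 CPM inside this group against 177, 350 and 317 CPM outside. Il7 was at 89.4, 88.0 and 49.97 against 138, 112 and 57.3 CPM. The Poisson intervals lay apart for Csf1 at 1 month (206 to 343 against 158 to 199). They also lay apart for Il7 at 1.5 months (77.0 to 100.2 against 103.1 to 121.7), and overlapped in the other younger pairs of Csf1 and Il7. At 1 month they lay apart for Vcam1 (1298 inside against 836 CPM outside), Il34 (128 against 62.0 CPM) and Cxcl12 (18067 against 16357 CPM). They did so for Vcam1 at 3 months (1314 against 1163 CPM). At 1.5 months Cxcl12 was lower inside (26224 against 27205 CPM), again with intervals apart. Cells with at least 3 of 6 interferon genes on were 2.17% at 16 months, with Il34 at 303 CPM against 224 CPM outside, and 7.98% at 1.5 months, where Il34 was at 268 CPM inside and 301 CPM outside. At 1 and 3 months they numbered under 20. These values were not tested.

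The tdTomato transcript was at 3084, 3158 and 2846 CPM in neutrophil-gated cells at 1, 1.5 and 3 months and at 265 CPM at 16 months, beside 4337, 4014, 3613 and 4487 CPM in Adipoq-gated cells.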
